A study of Mus musculus with 10 samples.

Results

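The genes described here build the mitotic spindle and separate the chromosomes when a cell divides. They are 52 genes of the deposited count table, chosen by gene symbol from a list of mitotic kinases, checkpoint proteins, kinetochore and centromere proteins, spindle motors, condensin subunits and their transcription factors. The table held 40690 genes in all, and each of the 52 symbols matched 1 Ensembl gene. Polyadenylated RNA of heart ventricles was sequenced in 5 samples labelled sham-operated, from mice that had the control surgery for an ischemia-reperfusion study, and in 5 naive samples from mice with no surgery. All 10 came from male C57BL/6 mice of 10 weeks, and the labels do not say whether each came from its own animal. The comparison asks which transcripts differ after the control surgery itself, and how long after surgery the hearts were taken is not stated in the labels. Libraries held 10654107 to 21537135 counted reads in sham and 9683181 to 17577906 in naive ventricles. Heart muscle was read from 8 cardiomyocyte markers, which summed to 49812 to 56267 CPM in sham and 64572 to 71986 CPM in naive libraries. CPM is the count scaled to the size of its library. No atrial markers were read beside them, so the ventricle label itself was not tested.

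At mitotic entry the kinases of the Polo, Aurora and cyclin-dependent families drive chromosome condensation and spindle assembly. Kinetochores then tie each chromosome to microtubules, and the spindle assembly checkpoint holds the anaphase-promoting complex (APC/C) in check until all are attached. Most of these transcripts are made in G2 and mitosis and are scarce in resting cells, and adult cardiomyocytes seldom divide, whereas fibroblasts, endothelial cells and macrophages of the heart can. Their promoters are known for 2 short elements, the cell cycle homology region TTTGAA (CHR), which the MuvB complexes DREAM and B-Myb-MuvB bind, and the CCAAT box, which NF-Y binds. 

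Promoters of 250 bases before to 50 after the annotated start were taken from RefSeq on GRCm38.p6 and matched 44 of the 52 genes by symbol, with 46 promoters since Prc1 and Ect2 have 2 each. Spc24, Smc4, Foxm1, Tpx2, Aurkb, Kif20a, Incenp and Pbk had no entry. TTTGAA on either strand lay in the promoter of 34 of the 44 genes, or 77.3%, and in 20.2% of the 27025 genes of the promoter table. CCAAT on either strand lay in 31 of the 44, or 70.5%, and in 41.1% of all. Both stood together in 28 of the 44 genes, 63.6%, and in 7.97% of all. The matches of TTTGAA were placed close to the start: 37 of 47 began within 50 bases of it, 78.7%, against 25.3% of the 6737 matches in all promoters. For CCAAT 28 of 75 matches began there, 37.3%, against 28.2% in all promoters. TTTGAA within 50 bases of the start was present in 31 of the 44 genes, 70.5%, and in 5.72% of all genes in the table. A match describes these letters only and is not evidence of binding.

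**Figure D1:**
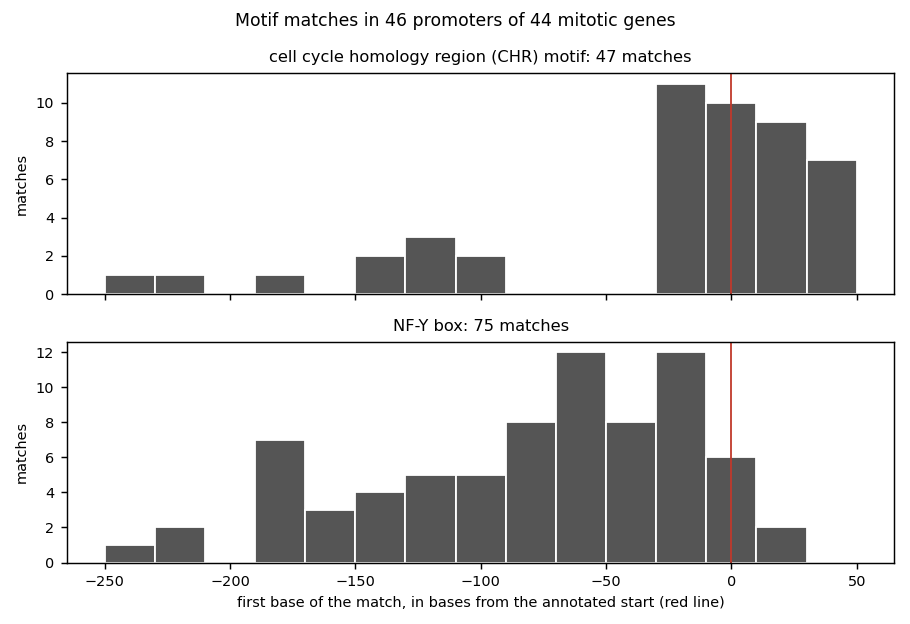
Position of each CHR motif match (top) and of each NF-Y box match (bottom) in the 46 promoters of 44 mitotic genes, as the first base of the match in bases from the annotated start (x axis) against the number of matches per bin of 20 bases (y axis). Of the 47 CHR matches 37 began within 50 bases of the start, and the 75 NF-Y box matches were spread further upstream; the 2 promoters of Prc1 and of Ect2 each count.

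The 3 promoters below belong to the genes with the smallest p-values among those that hold both motifs, and capitals mark TTTGAA and CCAAT on either strand. Each is written 5′ to 3′ on the strand of its gene.
Plk1 (chr7:122159185-122159484, plus strand): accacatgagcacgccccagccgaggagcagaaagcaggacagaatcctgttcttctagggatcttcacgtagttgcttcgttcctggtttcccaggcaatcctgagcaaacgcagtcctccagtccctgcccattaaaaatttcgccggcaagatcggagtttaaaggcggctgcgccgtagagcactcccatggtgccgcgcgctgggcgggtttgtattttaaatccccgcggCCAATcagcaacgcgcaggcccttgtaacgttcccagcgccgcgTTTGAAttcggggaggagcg
Ube2c (chr2:164769679-164769978, plus strand): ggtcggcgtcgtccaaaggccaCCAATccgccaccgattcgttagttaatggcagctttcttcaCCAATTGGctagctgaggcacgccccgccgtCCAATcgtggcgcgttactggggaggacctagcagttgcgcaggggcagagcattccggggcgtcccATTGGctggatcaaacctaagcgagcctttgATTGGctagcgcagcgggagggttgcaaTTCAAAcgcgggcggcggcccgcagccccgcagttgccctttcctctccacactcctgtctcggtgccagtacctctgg
Cdca3 (chr6:124829926-124830225, plus strand): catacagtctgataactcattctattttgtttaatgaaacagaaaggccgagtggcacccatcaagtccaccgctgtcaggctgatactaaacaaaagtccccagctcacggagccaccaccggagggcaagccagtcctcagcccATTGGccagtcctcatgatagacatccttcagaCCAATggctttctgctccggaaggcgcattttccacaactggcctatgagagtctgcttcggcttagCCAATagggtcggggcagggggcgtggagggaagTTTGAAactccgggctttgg
In the promoter of Plk1, the Polo-like kinase, 1 CCAAT box lay 14 bases before the start and TTTGAA began at base 31 after it. Ube2c, the ubiquitin-conjugating enzyme of the APC/C, held 6 matches of CCAAT, of which 2 overlap on opposite strands, and a reverse TTTGAA 29 bases before the start. Cdca3, an F-box-like trigger of mitotic entry, held 3 matches of CCAAT and TTTGAA at base 31. The windows below, 10 bases either side of TTTGAA on the strand of the match, show the element in 8 further genes described in the results, with its first base counted from the start and its position on GRCm38.p6.
Cenpa (chr5:30666892-30666917, first base at 17, forward): cgggtgatttTTTGAActgctggcga
Cenpf (chr1:189688069-189688094, first base at 3, forward): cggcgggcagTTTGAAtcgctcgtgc
Kif22 (chr7:127042422-127042447, first base at -17, reverse to the gene): gcttctctctTTTGAAttaccggggc
Kif4 (chrX:100626074-100626099, first base at 20, forward): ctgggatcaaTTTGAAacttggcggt
Hmmr (chr11:40733414-40733439, first base at 9, forward): ttgaggtaaaTTTGAAttcaggcgag
Top2a (chr11:99024197-99024222, first base at -23, reverse to the gene): cctagtttcaTTTGAAcctttatcta
Racgap1 (chr15:99651636-99651661, first base at 6, forward): ggtgcgtgatTTTGAAccggatctgg
Anln (chr9:22389170-22389195, first base at 22, reverse to the gene): ccgttcaaaaTTTGAAtttcagcgcc
The core was the same in all 8 by the search itself, and the flanking bases differed from gene to gene.

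Sham ventricles held more RNA of most of these genes than naive ventricles. The filter on low counts passed 44 of the 52, of which 41 were higher in sham, 1 was lower and 2 did not pass the test, beside 17.2% higher and 15.5% lower among all 13622 genes tested (edgeR quasi-likelihood test, Benjamini-Hochberg adjusted p under 0.05 over all genes). With library size alone as the scaling, in place of TMM, which moves the median of all genes up by 0.26 on the log2 scale, 43 of the 44 were higher and none lower, also at an unadjusted p under 0.05, beside 32.8% higher and 2.08% lower of all genes. Of the 44, 25 passed the filter only through the sham libraries, so that their direction was set by passing and the counts and medians over the 44 are descriptions. The 19 that also passed in the naive libraries alone held 16 of the higher genes, the 1 lower gene and the 2 that did not pass. Without a filter the fit took in all 52 genes, of which 47 were higher and 5 did not pass, beside 8.64% higher and 5.83% lower of 30305 genes. None of the 52 was lower in that fit, also at an unadjusted p under 0.05, whereas DESeq2 and limma voom, run with the filter, each called 1 lower, beside 16.2% and 23.8% of all genes. The median log2 fold change in the fit without a filter was 2.00 for the 52 genes and 0.04 for all genes. With the filter the 44 had a median of 1.97, from -0.25 to 3.10, against -0.05 for all genes tested. Every sham library exceeded every naive library for 39 of the 52 genes, beside 13.6% of the genes tested and 6.57% of the 30305 with at least 1 count. The reverse, every sham library under every naive library, held for none of the 52 genes and for 9.18% of those tested. Among the higher genes 38 had a fitted fold of at least 2 and 22 of at least 4, beside 7.30% and 2.12% of all genes tested. The samples are whole tissue, so more dividing cells and more of these transcripts per cell cannot be told apart.

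**Figure D2:**
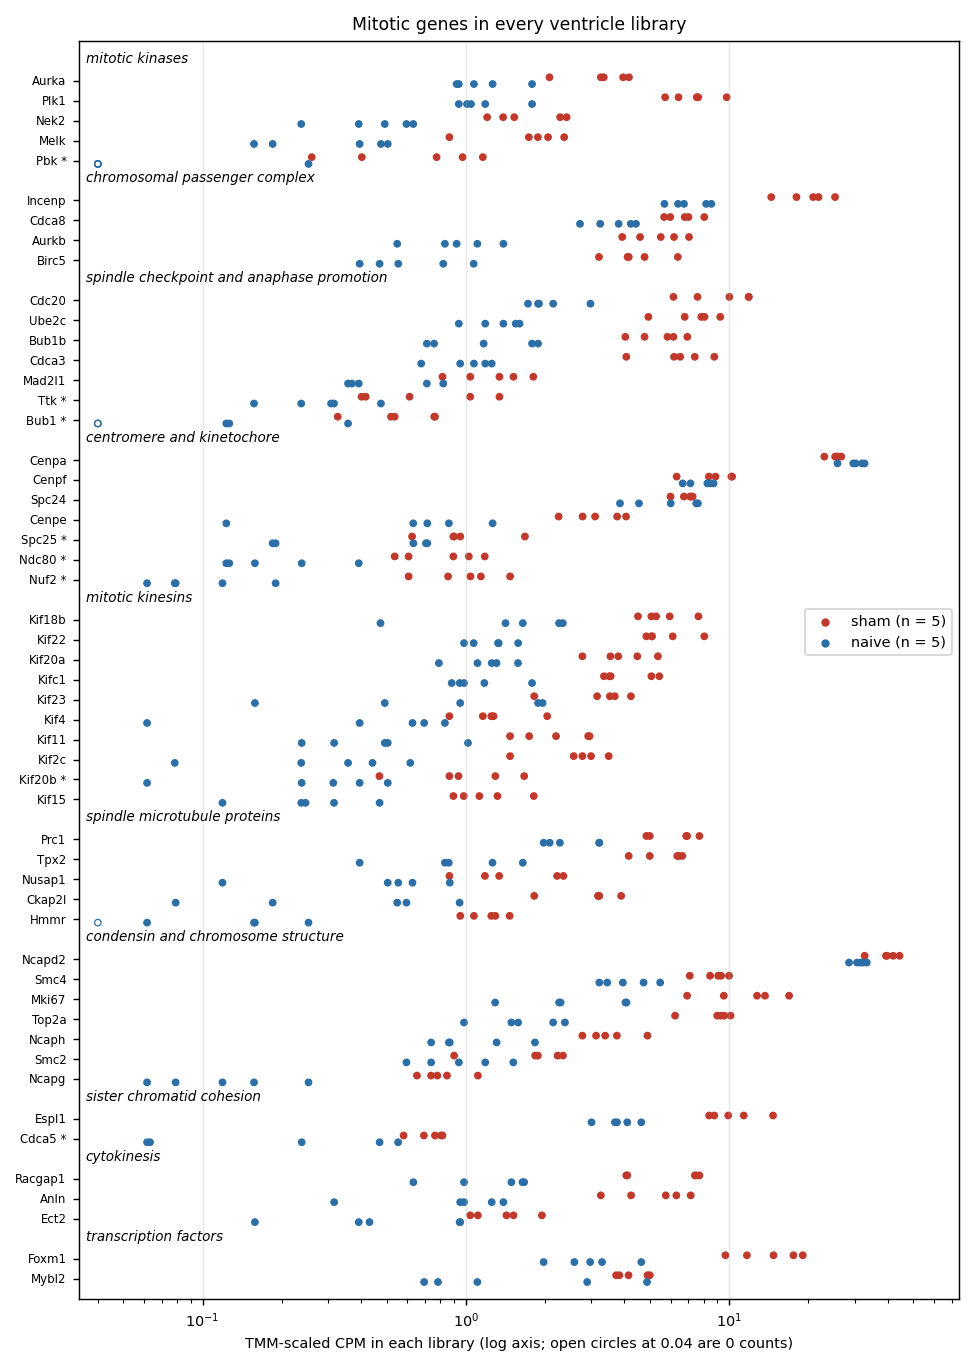
TMM-scaled CPM (log x axis) of each of the 52 genes in every sham (red, n = 5) and naive (blue, n = 5) library, grouped by role and ordered within a role by naive level; open circles are 0 counts, and an asterisk marks the 8 genes too low for the test. In 39 of the 52 genes every red point lies right of every blue point, and in the other 13, Cenpa, Cenpf, Spc24 and Ncapd2 among them, the groups overlap.

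Libraries of a group differed in level. The 52 genes together summed to 237, 329, 348, 277 and 303 CPM in sham libraries 1 to 5, against 149, 132, 127, 135 and 132 CPM in naive libraries 1 to 5. Every sham sum was above every naive sum, and the sham libraries were spread more widely, at 299 ± 43.5 against 135 ± 8.15 CPM in naive (SD, n = 5 each). Ncapd2 and Cenpa, singled out after their values were seen as the 2 genes of highest naive CPM, made up 21.8% of the sum in sham and 45.4% in naive ventricles. The other 50 genes summed to 234 ± 40.4 CPM in sham and 73.7 ± 9.0 CPM in naive libraries, a ratio of 3.17 against 2.21 for all 52. Sham 1 was the lowest sham library in 31 of the 52 genes and sham 3 the highest in 28, so the order of the sham libraries was shared by many of the genes. Naive 1, the shallowest library, was the highest naive library in 19 genes and naive 5 in 16. Without sham 1 the higher genes numbered 40 of 45 in the fit, and without naive 1 and sham 4 together 42 of 46.

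Cell type markers moved with the groups in some lists. Their counts are set beside 17.2% higher and 15.5% lower of all genes tested. Of 9 macrophage and monocyte markers, 8 were tested and all 8 rose, and the list summed to 832 to 987 CPM in sham and 275 to 334 CPM in naive libraries. Of these, Ccr2 averaged 0.357 CPM in naive libraries, under the filter cutoff of 0.703 CPM, so passing in part set its direction. Of 8 fibroblast markers 6 rose and 2 did not pass, with sums of 8216 to 13054 CPM in sham and 2184 to 2698 CPM in naive libraries. Collagen Col1a1 made most of that difference, at a mean of 8598 CPM in sham and 601 CPM in naive libraries. The other 7 fibroblast markers summed to 1795 to 2213 CPM in sham and 1643 to 1939 CPM in naive libraries, which overlap. Gsn made most of that remainder, at a mean of 1491 CPM in sham and 1652 CPM in naive libraries, and did not pass. Dcn did not pass either. Pdgfra, Tcf21, Dpt, Lum and Postn rose, by log2 fold changes from 0.56 for Pdgfra to 3.58 for Postn. Endothelial markers fell in 4 of 8 cases and did not pass in the other 4 (1056 to 1170 CPM in sham, 1180 to 1449 CPM in naive). Without Cdh5 the endothelial sums overlap, at 692.6 to 802.3 CPM in sham and 788.8 to 1007.5 CPM in naive libraries. Smooth muscle and pericyte markers rose in 1 of 8 and fell in 2 (841 to 1029 CPM in sham, 780 to 1116 CPM in naive). Cardiomyocyte markers fell in 7 of 8 cases, and their sums without Myh6 overlap, at 20488.5 to 27184.4 CPM in sham and 27044.6 to 31843 CPM in naive libraries. Of 6 mesothelial markers 3 fell (19.6 to 32.1 CPM in sham, 39.5 to 59.8 CPM in naive). Both tested neutrophil markers of 6 rose (14.6 to 33.7 CPM in sham, 1.98 to 4.92 CPM in naive), and 1 of them, S100a9, overlapped between the groups. Csf3r made most of these sums, at a mean of 17.0 CPM in sham and 2.50 CPM in naive libraries. The other 5 summed to 0.866 to 6.44 CPM in sham and 0.235 to 1.77 CPM in naive libraries, which overlap. S100a9 averaged 0.293 CPM in naive libraries, also under the filter cutoff, so passing in part set its direction. Lymphocyte markers stood at 3.88 to 4.52 CPM in sham and 1.97 to 3.79 CPM in naive, with 1 of 8 tested, which did not pass, and with Cd3d at 0 counts in naive. The 4 tested of 6 erythroid markers did not pass (61.9 to 262 CPM in sham, 39.7 to 298 CPM in naive). Library size alone called 32.8% of all genes higher and 2.08% lower. With that scaling the 4 endothelial calls were lost, and 2 cardiomyocyte and 2 mesothelial markers fell. Of the smooth muscle and pericyte markers 3 rose, and the macrophage and fibroblast counts stayed at 8 and 6. The part of these shifts in the values of the mitotic genes was not tested.

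**Figure D3:**
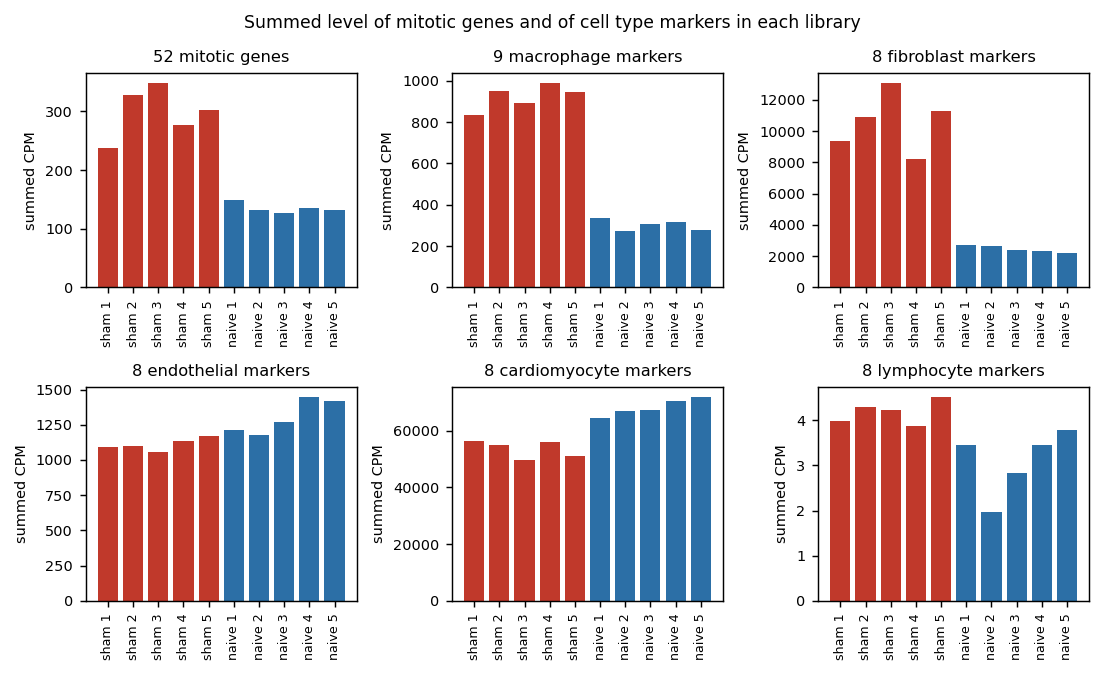
Summed CPM (y axis, from 0) in each library (x axis; sham red, naive blue) of the 52 mitotic genes and of 5 lists of cell type markers. The mitotic sum ran from 237 to 348 in sham and from 127 to 149 in naive libraries, with macrophage and fibroblast sums also higher in every sham library and the cardiomyocyte sum lower in every one. Without Col1a1 the fibroblast sums of the groups overlap, at 1795 to 2213 in sham and 1643 to 1939 in naive libraries. Gsn, which did not pass, made most of those remaining sums. The cardiomyocyte sums overlap without Myh6, at 20488.5 to 27184.4 in sham and 27044.6 to 31843 in naive libraries.

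The mitotic kinases rose in all 4 tested cases, of which Nek2 and Melk passed the filter only through the sham libraries. Plk1 (chr7:122159439-122169873, plus strand, GRCm38), which drives centrosome maturation and mitotic entry, measured 5.72, 7.64, 9.80, 6.43 and 7.54 CPM in sham libraries 1 to 5, against 1.78, 1.05, 1.19, 0.941 and 1.01 CPM in naive libraries 1 to 5. The groups did not overlap, and the log2 fold change was 2.68 ± 0.21 (SE, n = 5 each, adjusted p = 1.08e-07). Naive 1 was the highest of the naive libraries. For Melk, the maternal embryonic leucine zipper kinase, the values were 0.866, 1.74, 1.88, 2.05 and 2.36 CPM in sham and 0.476, 0.185, 0.395, 0.157 and 0.505 CPM in naive libraries 1 to 5. Nek2, which splits the centrosomes, was at 1.39, 1.53, 2.42, 1.21 and 2.28 CPM in sham and 0.595, 0.492, 0.237, 0.392 and 0.631 CPM in naive libraries. Neither gene overlapped between the groups, and the log2 fold changes were 2.41 ± 0.37 (adjusted p = 0.000114) and 1.90 ± 0.32 (adjusted p = 0.000327). Aurka, the Aurora kinase of the spindle poles, averaged 3.36 ± 0.815 CPM in sham and 1.20 ± 0.356 CPM in naive libraries (SD, n = 5 each) and rose by 1.53 ± 0.25 on the log2 scale. Pbk was too low for the test, with 3, 14, 6, 26 and 19 counts in sham libraries 1 to 5 and 0, 0, 0, 0 and 4 counts in naive libraries 1 to 5. It was higher in the fit without a filter (adjusted p = 5.02e-06).

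All 4 genes of the chromosomal passenger complex rose, of which Aurkb and Birc5 passed the filter only through the sham libraries. This complex corrects faulty attachments at the centromere and later marks the site of cleavage. Birc5, known as survivin, its targeting subunit (chr11:117849251-117855743, plus strand), measured 3.20, 6.39, 4.16, 4.78 and 4.12 CPM in sham and 1.07, 0.554, 0.395, 0.470 and 0.821 CPM in naive libraries 1 to 5. Aurkb, its kinase, measured 4.59, 6.18, 7.04, 3.93 and 5.50 CPM in sham and 0.833, 0.923, 1.11, 0.549 and 1.39 CPM in naive libraries 1 to 5. Every sham library exceeded every naive library for both, with log2 fold changes of 2.81 ± 0.28 (adjusted p = 1.19e-06) and 2.47 ± 0.24 (adjusted p = 1.33e-06). Cdca8, known as borealin, had 5.98, 7.01, 8.05, 6.78 and 5.67 CPM in sham and 3.81, 4.43, 3.24, 4.23 and 2.71 CPM in naive libraries 1 to 5. The groups were apart here too, by a smaller step: the log2 fold change of Cdca8 was 0.86 ± 0.17 (adjusted p = 0.000924). The scaffold Incenp averaged 20.1 ± 4.08 CPM in sham and 7.11 ± 1.22 CPM in naive libraries, a log2 fold change of 1.51 ± 0.16. Per kilobase of exon, its level in naive ventricles ranked 4 among the 52, at 1.64 RPKM, the CPM divided by exon length in kilobases, with 4.64 RPKM in sham. By the same measure Aurkb stood at 1.85 RPKM in sham and 0.326 RPKM in naive ventricles, so the subunits of 1 complex had unequal RNA levels in both groups.

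Genes of the spindle checkpoint and of anaphase onset rose in all 5 tested cases. Among them Bub1b, Mad2l1 and Cdca3 passed the filter only through the sham libraries. Ube2c measured 4.94, 7.85, 9.26, 6.78 and 8.07 CPM in sham and 1.55, 1.60, 1.19, 0.941 and 1.39 CPM in naive libraries 1 to 5. The corresponding values of Cdca3 were 4.07, 6.18, 8.79, 7.41 and 6.52 CPM in sham and 0.952, 0.677, 1.19, 1.25 and 1.07 CPM in naive libraries. These are the genes whose promoters are shown above, and neither overlapped between the groups (log2 fold changes 2.47 ± 0.21 and 2.69 ± 0.24, adjusted p = 2.17e-07 and 3.53e-07). Of the exon bases of Ube2c 22.8% overlap Tnnc2 on the other strand, which had at most 1 count in any library. Mad2l1, the checkpoint protein that sequesters Cdc20, was at 1.04, 1.81, 1.34, 1.52 and 0.815 CPM in sham and 0.357, 0.369, 0.711, 0.392 and 0.821 CPM in naive libraries 1 to 5. Sham 5 fell within the naive range, and the log2 fold change of Mad2l1 was 1.25 ± 0.34 (adjusted p = 0.0097). The APC/C activator Cdc20 averaged 9.50 ± 2.57 CPM in sham and 2.12 ± 0.499 CPM in naive libraries, and the checkpoint kinase-like protein Bub1b 5.55 ± 1.15 CPM in sham and 1.26 ± 0.553 CPM in naive libraries (log2 fold changes 2.19 ± 0.21 and 2.16 ± 0.26). At 5.09 RPKM Cdc20 was second of the 52 genes in sham ventricles. The checkpoint kinases Bub1 and Ttk were not tested for low counts: Bub1 had 50 counts over the sham and 7 over the naive libraries, and Ttk 62 and 19. Without a filter Bub1 was higher (adjusted p = 0.00334) and Ttk did not pass (adjusted p = 0.0534).

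Of 4 tested centromere and kinetochore genes 1 rose, 1 was lower and 2 did not pass, beside 17.2% higher and 15.5% lower of all genes tested. The 1 that rose, Cenpe, passed the filter only through the sham libraries. The number higher was 3 with library size alone, 3 of 7 without a filter, and 1 to 3 when 1 library was left out, with 3 without naive 1 or naive 4. Cenpe, the kinetochore motor that gathers chromosomes at the spindle equator, measured 2.25, 2.78, 3.76, 4.06 and 3.10 CPM in sham and 0.714, 0.123, 1.26, 0.862 and 0.631 CPM in naive libraries 1 to 5. All sham libraries were above all naive libraries (log2 fold change 2.19 ± 0.35, adjusted p = 0.000187). Cenpa (chr5:30666777-30674830, plus strand), the histone H3 variant that marks centromeres, was at 25.3, 25.8, 23.0, 26.7 and 25.8 CPM in sham and 32.7, 30.3, 32.0, 29.6 and 25.8 CPM in naive libraries 1 to 5. It was just past the threshold as lower, at -0.25 ± 0.09 (adjusted p = 0.0447), and naive 5 was the single naive library within the sham range. That call was lost when any 1 of 9 libraries was left out, all but naive 5 (adjusted p of 0.0603 to 0.111), and with library size alone as the scaling the value was 0.02. Cenpf, a large kinetochore protein, had 6.32, 10.2, 8.39, 8.88 and 10.3 CPM in sham and 6.66, 8.74, 8.45, 7.13 and 8.27 CPM in naive libraries. Spc24, of the NDC80 complex that grips microtubules, had 7.10, 6.73, 7.18, 7.28 and 5.99 CPM in sham and 7.61, 7.51, 6.00, 4.55 and 3.85 CPM in naive libraries. Both overlapped between the groups and neither passed (log2 fold changes 0.17 ± 0.14 and 0.22 ± 0.18, adjusted p = 0.404 and 0.369). With library size alone they passed as higher, at 0.43 and 0.49 (adjusted p = 0.0436 and 0.0357).

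The other NDC80 complex genes were too low for the test. Ndc80 had 7, 17, 8, 23 and 22 counts in sham and 2, 2, 2, 5 and 2 counts in naive libraries 1 to 5. Nuf2, its partner, had 7, 15, 17, 33 and 21 counts in sham and 1, 1, 1, 1 and 3 counts in naive libraries 1 to 5. In both genes, scaled for depth, all sham libraries were above all naive libraries. Without a filter Ndc80 and Nuf2 were higher (adjusted p = 0.000927 and 3.16e-07). Spc25, the partner of Spc24, had 85 counts over the sham and 29 over the naive libraries and did not pass in that fit (adjusted p = 0.0581). Per kilobase of exon the 4 subunits differed in level. Spc24 stood at 2.66 RPKM in sham and 2.29 RPKM in naive ventricles. The other 3 were lower in both groups, with Spc25 at 0.317 RPKM in sham and 0.152 in naive, Ndc80 at 0.131 in sham and 0.0320 in naive, and Nuf2 at 0.161 in sham and 0.0166 in naive ventricles.

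Of the 10 mitotic kinesins, motors that build the spindle and move chromosomes, all 9 that were tested rose, by 1.43 to 2.87 on the log2 scale. Among these, Kif2c, Kif4, Kif11, Kif15, Kif18b and Kif23 passed the filter only through the sham libraries, which set their direction. Kif22, a chromosome arm motor (chr7:127027729-127042471, minus strand), measured 4.85, 6.11, 8.05, 5.09 and 5.09 CPM in sham and 1.07, 0.984, 1.58, 1.33 and 1.33 CPM in naive libraries 1 to 5. Kif2c, known as MCAK, which dismantles microtubule ends at the centromere, measured 1.47, 2.57, 3.49, 2.99 and 2.77 CPM in sham and 0.357, 0.615, 0.237, 0.0784 and 0.442 CPM in naive libraries 1 to 5. The groups were apart for both, with log2 fold changes of 2.20 ± 0.21 (adjusted p = 7.87e-07) and 2.87 ± 0.36 (adjusted p = 1.6e-05). The chromokinesin Kif4 had 0.866, 1.25, 1.27, 1.16 and 2.04 CPM in sham and 0.833, 0.0615, 0.395, 0.627 and 0.695 CPM in naive libraries 1 to 5. Its groups were separated narrowly, its log2 fold change was 1.43 ± 0.42 (adjusted p = 0.0151), and it did not pass without sham 5 (adjusted p = 0.0564, range over the 10 fits that leave out 1 library 0.0116 to 0.0564). Of its exon bases 15.1% overlap Pdzd11 on the other strand, which had more counts than Kif4 in every library, so the value of Kif4 is uncertain. Kif4 and Kif22 each have a pseudogene in the annotation, so reads can be shared. The bipolar spindle motor Kif11 rose by 2.08 ± 0.34, its backup Kif15 by 2.04 ± 0.36, the minus-end motor Kifc1 by 1.89 ± 0.24 and the plus-end depolymerase Kif18b by 1.81 ± 0.28. Kif23, a subunit of centralspindlin, rose by 1.59 ± 0.42 with groups that overlap, and Kif20a, which works at the midzone, by 1.72 ± 0.23. Kif20a shares 29.3% of its exon bases with Cdc23 on the other strand, which had more counts than Kif20a in every library, so the value of Kif20a is uncertain. Kif20b, with 93 counts over the sham and 20 over the naive libraries, was not tested and was higher without a filter (adjusted p = 0.00133).

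**Figure D4:**
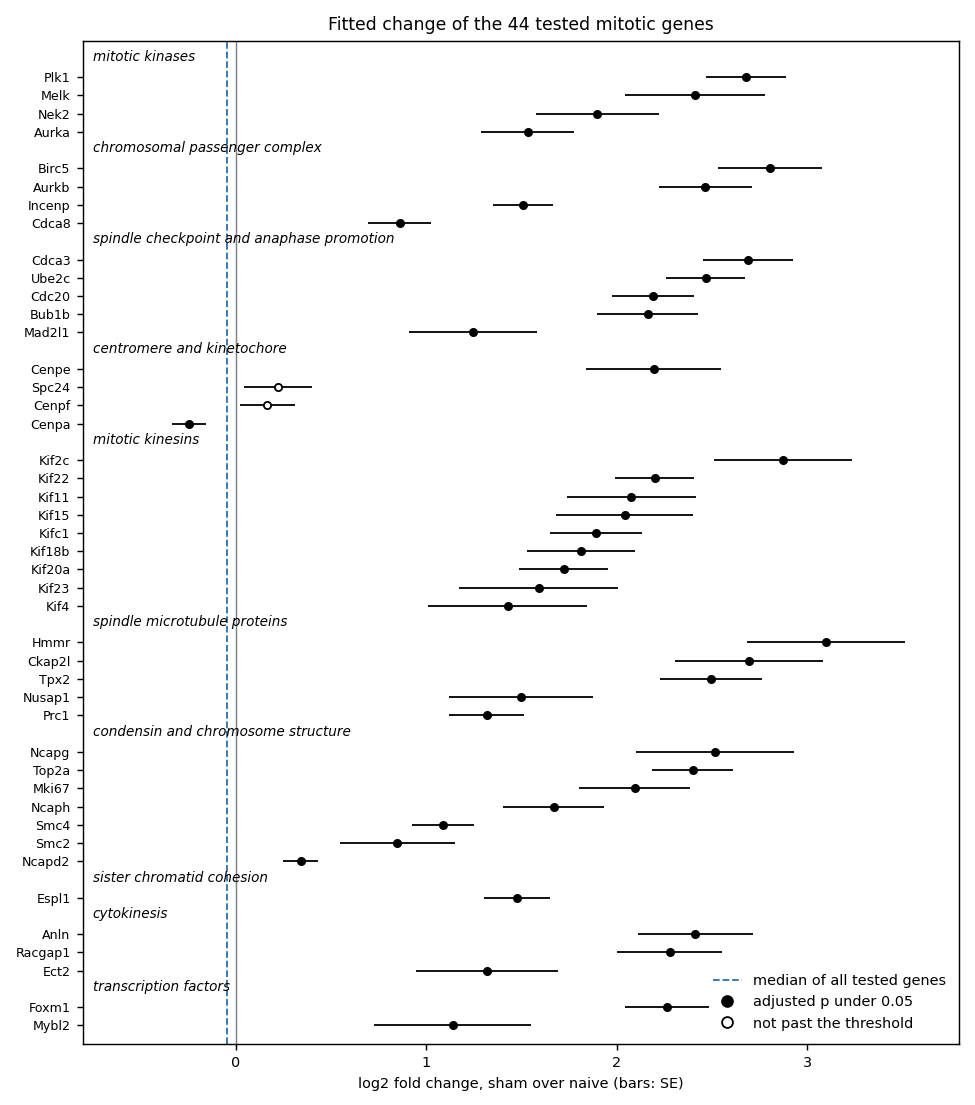
Fitted log2 fold change of sham over naive with its SE (x axis) for the 44 tested genes, by role; filled points passed at an adjusted p under 0.05, open points did not, and the dashed line is the median of all 13622 genes tested. Values ran from -0.25 for Cenpa to 3.10 for Hmmr, and the 4 smallest belonged to Cenpa, Cenpf, Spc24 and Ncapd2.

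All 5 spindle microtubule proteins rose, but all except Prc1 passed the filter only through the sham libraries, which set their direction. Hmmr, a spindle assembly factor also known as a hyaluronan receptor, had the largest fitted change of the 44. It was at 0.953, 1.25, 1.07, 1.29 and 1.47 CPM in sham and 0, 0.0615, 0.158, 0.157 and 0.253 CPM in naive libraries 1 to 5, with no overlap and a log2 fold change of 3.10 ± 0.41 (adjusted p = 3.09e-05). Its naive values rest on 9 counts in all. Tpx2, which activates Aurka on spindle microtubules, measured 4.16, 6.46, 6.64, 5.00 and 6.36 CPM in sham and 0.833, 0.861, 0.395, 1.65 and 1.26 CPM in naive libraries 1 to 5. Nusap1, which bundles microtubules at chromosomes, measured 0.866, 2.22, 2.35, 1.34 and 1.18 CPM in sham and 0.119, 0.554, 0.869, 0.627 and 0.505 CPM in naive libraries 1 to 5. Tpx2 did not overlap (log2 fold change 2.50 ± 0.27, adjusted p = 3.21e-06), whereas sham 1 lay within the naive range of Nusap1 (1.5 ± 0.38, adjusted p = 0.00625). Ckap2l rose by 2.69 ± 0.39 and the midzone crosslinker Prc1 by 1.32 ± 0.20. Of the exon bases of Prc1 11.1% overlap Rccd1 on the other strand. Rccd1 had more counts than Prc1 in every library but sham 3, so the value of Prc1 is uncertain.

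Condensin and chromosome structure genes rose in all 7 cases, over a wide span. Among them Ncapg, Ncaph and Smc2 passed the filter only through the sham libraries. Top2a (chr11:98992943-99024189, minus strand), which untangles sister DNA, measured 6.24, 9.58, 10.1, 9.02 and 9.29 CPM in sham and 2.38, 0.984, 1.58, 1.49 and 2.15 CPM in naive libraries 1 to 5. Mki67, the coat protein of mitotic chromosomes and a common proliferation marker, measured 6.93, 12.8, 16.9, 9.55 and 13.7 CPM in sham and 2.26, 1.29, 2.29, 4.08 and 4.04 CPM in naive libraries 1 to 5. Sham 1 was the lowest sham library for both, and yet above every naive library. The log2 fold change was 2.40 ± 0.21 for Top2a and 2.1 ± 0.29 for Mki67 (adjusted p = 3.83e-07 and 7.57e-05). Among the condensin subunits the values spread by subunit. Ncapg and Ncaph, specific to condensin I, rose by 2.52 ± 0.42 and 1.67 ± 0.26. Ncapd2, the other subunit specific to condensin I, measured 32.7, 44.4, 42.0, 39.5 and 39.8 CPM in sham and 28.6, 33.3, 31.6, 32.3 and 30.6 CPM in naive libraries 1 to 5. Sham 1 lay under naive 2, the other sham libraries were above all naive libraries, and the log2 fold change of Ncapd2 was 0.34 ± 0.09 (adjusted p = 0.00925). The ATPase subunits shared by both condensins, Smc4 and Smc2, were higher by 1.09 ± 0.16 and 0.85 ± 0.30. Smc2 was at 2.34, 0.903, 1.88, 2.23 and 1.83 CPM in sham and 0.595, 0.738, 1.19, 0.941 and 1.52 CPM in naive libraries 1 to 5. Its groups overlap and its call (adjusted p = 0.0423) was lost without any 1 of 8 libraries, all but sham 2 and naive 5 (adjusted p of 0.0596 to 0.105), and with limma voom (adjusted p = 0.0874). For Ncapg 13.4% of the exon bases overlap Lcorl on the other strand, which had more counts than Ncapg in every naive library. Ncapg had 9 counts over the naive libraries, so its value is uncertain.

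Of the 2 genes of sister chromatid cohesion, Espl1, the separase that cuts cohesin, measured 8.40, 9.93, 14.7, 8.79 and 11.4 CPM in sham and 4.64, 3.75, 3.00, 3.68 and 4.10 CPM in naive libraries 1 to 5. The groups were well apart, with a log2 fold change of 1.48 ± 0.17 (adjusted p = 7.81e-06). Cdca5, known as sororin, which protects cohesin, was too low for the test, with 64 counts over the sham and 17 over the naive libraries. It was higher without a filter (adjusted p = 0.0353), and every sham library stood above every naive library.

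Cytokinesis genes rose in all 3 cases, but all 3 passed the filter only through the sham libraries, which set their direction. Racgap1, the other centralspindlin subunit, had 4.07, 7.5, 7.72, 4.11 and 7.42 CPM in sham and 1.67, 0.984, 0.632, 1.49 and 1.64 CPM in naive libraries 1 to 5. Anln, the scaffold of the contractile ring, had 4.24, 7.15, 6.31, 3.26 and 5.75 CPM in sham and 0.952, 0.984, 0.316, 1.25 and 1.39 CPM in naive libraries 1 to 5. Ect2, which activates RhoA at the cleavage site, had 1.04, 1.11, 1.95, 1.52 and 1.43 CPM in sham and 0.952, 0.431, 0.158, 0.392 and 0.947 CPM in naive libraries 1 to 5. In none of the 3 did the groups overlap, though the gap was narrow for Ect2. The log2 fold changes were 2.28 ± 0.28, 2.41 ± 0.30 and 1.32 ± 0.37 in that order (adjusted p = 1.17e-05, 1.53e-05 and 0.0124).

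Both transcription factors of the set were higher, of which Mybl2 passed the filter only through the sham libraries. Foxm1 (chr6:128362967-128376146, plus strand), which activates late cell cycle genes together with MuvB, measured 11.7, 17.6, 19.1, 9.69 and 14.8 CPM in sham and 4.64, 2.58, 1.98, 3.29 and 2.97 CPM in naive libraries 1 to 5. All sham libraries were above all naive libraries, with a log2 fold change of 2.26 ± 0.22 (adjusted p = 1.24e-06). Mybl2, known as B-Myb, the other partner of MuvB, measured 3.72, 5.00, 4.90, 4.15 and 3.83 CPM in sham and 4.88, 2.89, 1.11, 0.784 and 0.695 CPM in naive libraries 1 to 5. Naive 1 and naive 2 were far above the other naive libraries, and naive 1 lay among the sham values. Mybl2 was just past the threshold, at 1.14 ± 0.41 (adjusted p = 0.0486). The call was lost without any 1 of the 5 sham libraries and without naive 3, 4 or 5 (adjusted p of 0.0626 to 0.114).

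Other genes of cell division were read from the same fit, in 12 lists with 163 genes, of which 144 were tested: 42 rose, or 29.2% beside 17.2% of all genes, 13 fell, or 9.03% beside 15.5%, and 89 did not pass. The median log2 fold change was 0.11. Spdl1, Kif14, Dlgap5 and Ckap2, among others, averaged under the filter cutoff of 0.703 CPM in naive libraries. Such genes would not pass the filter on the naive libraries alone, so passing in part set their direction. The counts and medians of the lists are therefore descriptions. Scaled by library size alone, 69 rose and 2 fell, beside 32.8% higher and 2.08% lower of all genes. The list with the highest median was that of mitotic cyclins and CDK1 control, with 9 of 10 tested genes higher and a median of 1.86. Gtse1, a G2 and S phase protein, rose by 2.57 ± 0.24 and the phosphatase Cdc25b, which activates CDK1, by 1.19 ± 0.13. Wee1, a kinase that restrains CDK1, was the 1 member that fell. It averaged 9.61 ± 1.68 CPM in sham and 18.7 ± 4.07 CPM in naive libraries (SD, n = 5 each). Its log2 fold change was -0.96 ± 0.16 (adjusted p = 0.000235), with all sham libraries below all naive libraries. Pkmyt1, of the same list, rose by 0.98 ± 0.14 (adjusted p = 4.98e-05). Of 11 genes that encode subunits of DREAM or MuvB 2 rose, 1 fell and 8 did not pass, and the 2 that rose were Rbl1 and Tfdp1. The 3 other E2F genes of that list, E2f1, E2f7 and E2f8, rose. E2f1, an activator of S phase genes, and E2f8, a repressor, rose by 1.71 ± 0.23 and 1.07 ± 0.19. Rbl2, the pocket protein p130 of DREAM in resting cells, averaged 33.7 ± 4.87 CPM in sham and 46.6 ± 1.97 CPM in naive libraries and fell by a log2 fold change of -0.47 ± 0.10. Rbl2 did not pass with library size alone (adjusted p = 0.179).

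The lists of kinetochore, APC/C and cohesin genes had smaller medians. Their counts are set beside 17.2% higher and 15.5% lower of all genes tested. Inner kinetochore and CENP-A loading genes rose in 6 of 12 tested cases (median 0.66), with the smallest p-values for Cenpm, an inner kinetochore subunit, at 1.77 ± 0.29 and for Hjurp, the chaperone that loads CENP-A, at 0.49 ± 0.12. Outer kinetochore and checkpoint genes outside the 52 rose in 4 of 13 (median 0.41), with the smallest p-values for Knstrn, a spindle and kinetochore protein, at 1.70 ± 0.28 and Spdl1, which brings dynein to kinetochores, at 1.63 ± 0.34. Of 16 tested APC/C genes 1 rose, the APC/C inhibitor Fbxo5, known as Emi1, at 1.17 ± 0.36, which did not pass without sham 3 or without naive 3 (adjusted p = 0.0614 and 0.0512, range over those 10 fits 0.00495 to 0.0614). The other 15 did not pass, Anapc15 among them at 0.57 ± 0.25, which passed as higher without naive 2 (adjusted p = 0.0457, range 0.0457 to 0.184) and with library size alone (adjusted p = 0.0169). With that scaling 9 APC/C genes rose in all, against 1 with TMM, beside 32.8% and 17.2% of all genes. Of 13 tested cohesin genes 2 fell, or 15.4% beside 15.5% of all genes, and 11 did not pass. The 2 were Pttg1, known as securin, the inhibitor of separase, at -0.46 ± 0.15 (adjusted p = 0.0263), and Mau2, of the cohesin loader, at -0.26 ± 0.09 (adjusted p = 0.04). Pttg1 was lost without any 1 of 5 libraries, sham 1, 2 or 3 or naive 4 or 5 (adjusted p of 0.0574 to 0.0865), and Mau2 without any 1 of 8 (adjusted p of 0.0575 to 0.136), all but naive 1 and 2. With library size alone Pttg1 was at -0.20 and did not pass, and Mau2 was at 0.01. Condensin II had 1 of 3 genes higher, Ncapg2 at 1.42 ± 0.23, with Ncapd3 at -0.20 ± 0.15 and not past.

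**Figure D5:**
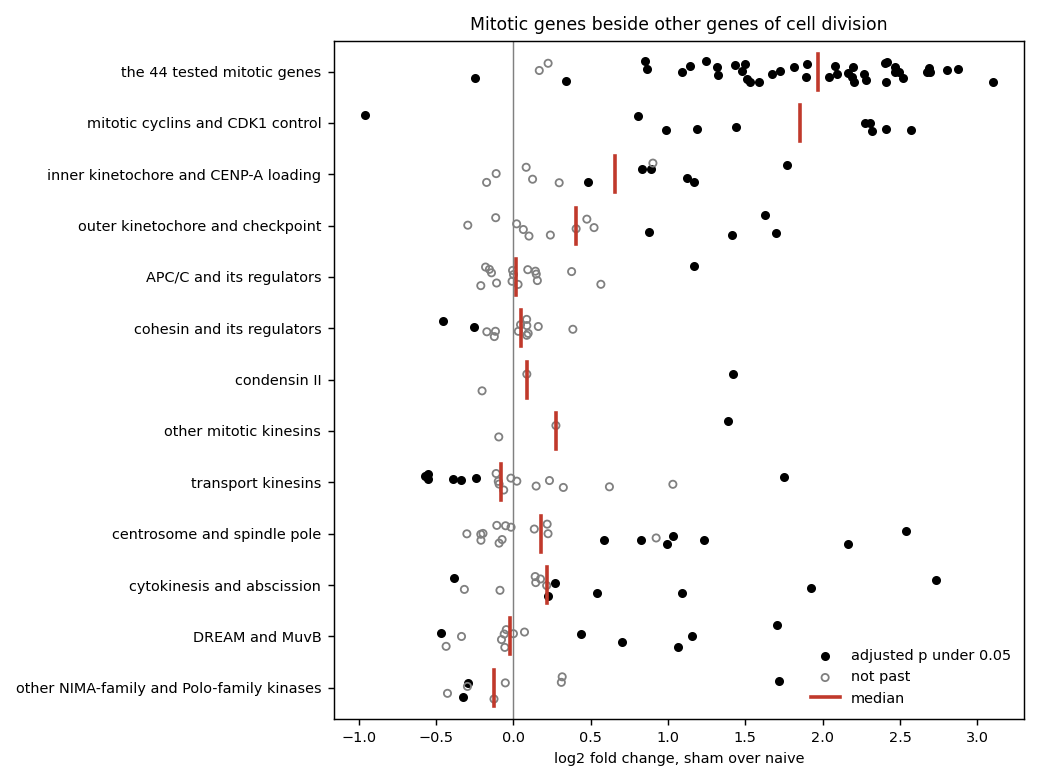
Log2 fold change of sham over naive (x axis) for the 44 tested mitotic genes (top row) and for the tested genes of 12 related lists; filled points passed at an adjusted p under 0.05, open points did not, and red bars are medians. The medians were 1.97 for the mitotic genes, 1.86 for cyclins and CDK1 control, and 0.02 and 0.05 for the APC/C and cohesin lists.

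Motors and kinases of the same families were read for contrast. Of all genes tested 17.2% were higher and 15.5% lower, or 32.8% and 2.08% with library size alone. Of 18 kinesin genes of cell transport 1 rose (5.56%), 6 fell (33.3%) and 11 did not pass (median -0.08), while with library size alone 7 rose and 1 fell. The 1 that rose was Kif21b, a motor of neurons and immune cells, which averaged 18.8 ± 2.81 CPM in sham and 5.58 ± 0.393 CPM in naive libraries (1.75 ± 0.13), while its paralog Kif21a fell by a log2 fold change of -0.57 ± 0.10. Of 3 tested mitotic kinesins outside the 52, Kif14 rose by 1.39 ± 0.41, a call lost without sham 3 (adjusted p = 0.0569, range 0.00541 to 0.0569), and Kif24 did not pass (0.28 ± 0.25). Among 9 other NIMA-family and Polo-family kinases 1 rose, Nek6, which acts in spindle assembly, at 1.72 ± 0.16, 2 fell, including Nek7 at -0.33 ± 0.09, and 6 did not pass. Nek7 did not pass without sham 5 (adjusted p = 0.0590, range 0.0057 to 0.059) or with library size alone, which gave 3 genes of that list higher. Centrosome and spindle pole genes rose in 7 of 20 tested cases, with the smallest p-values for Dlgap5, which stabilises kinetochore fibres, at 2.16 ± 0.32 and Ckap2 at 2.54 ± 0.42. Cytokinesis and abscission genes outside the 52 rose in 6 of 13 cases and fell in 1, and 10 rose with library size alone. Iqgap3 rose by 1.93 ± 0.21, citron kinase (Cit) by 1.09 ± 0.15, and the kinase Rock2 fell by a log2 fold change of -0.38 ± 0.11. Rock2 did not pass without sham 2 (adjusted p = 0.0524, range 0.00857 to 0.0524) or with library size alone (adjusted p = 0.483).

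Promoter letters were set beside these lists. TTTGAA and CCAAT stood together in 63.6% of the promoters of the 52 genes that had an entry (28 of 44), and in 3 of 7 for the cyclins and CDK1 control, 5 of 16 for the inner kinetochore, 4 of 13 for the outer kinetochore and 3 of 11 for the DREAM and MuvB list. It was 3 of 18 for the centrosome list, 1 of 16 for the APC/C list, 1 of 8 for cohesin and 1 of 4 for the other mitotic kinesins. No promoter held both among 13 of transport kinesins, 8 of cytokinesis, 8 of NIMA-family and Polo-family kinases and 3 of condensin II. Over the 10152 tested genes with an entry the share was 6.61%. Within the 52 genes the 26 tested genes with both had a median log2 fold change of 1.98, from -0.25 to 3.10, and the 6 tested genes with neither a median of 1.58, from 1.14 to 2.81. The 3 tested genes with TTTGAA alone had a median of 2.41 and the 2 with CCAAT alone of 2.05. The 6, the 3 and the 2 all passed the filter only through the sham libraries, which set their direction. The class medians are therefore descriptions and cannot be compared. Cenpa and Cenpf, whose CHR windows are shown above, hold both motifs and were among the 4 genes of smallest change.

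Levels per kilobase ordered the 52 genes differently in the groups. In naive ventricles Cenpa, Ncapd2 and Spc24 led, at 5.13, 4.99 and 2.29 RPKM, followed by Incenp at 1.64 and Cdc20 at 1.14. In sham ventricles the order was Ncapd2, Cdc20, Incenp and Cenpa, at 6.33, 5.09, 4.64 and 4.32 RPKM, and Plk1 came next at 3.38 RPKM. The 3 genes with the highest naive levels thus had fitted changes of -0.25, 0.34 and 0.22 on the log2 scale, 3 of the 4 smallest of the 44. Naive level enters both quantities, so the relation is a description.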

How the data were processed

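Gene counts of whole ventricles were deposited by the authors as whole-number read counts for each Ensembl gene; the file headers name HTSeq and GRCm38. The submitters' processing notes also name Bowtie2, TopHat2 2.1.1, TopHat, DESeq and edgeR, with no role given. Libraries were unstranded and single-end per the labels, so strand cannot tell apart the reads of genes that overlap on opposite strands. A column of GC percent per gene, deposited by the authors, served 1 alternative. No source states the annotation release or the strand setting of the counting.

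Of 41264 rows 574 repeated another and were counted once. Genes were kept by edgeR's filterByExpr (at least 10 counts, a cutoff of 0.703 CPM), scaled by TMM and tested with edgeR 4.0.16 (quasi-likelihood, sham over naive, R 4.3.3), with p-values adjusted over all genes tested. DESeq2 1.42.0, limma 3.58.1 (voom with sample weights), RLE size factors, library size alone, no filter, a filter of 1 CPM in 5 libraries, a GC offset, a replicate block and fits without 1 library were the alternatives, and the script was tested on simulated counts. CPM are TMM-scaled, and RPKM use the union of exons of GENCODE M21. No 2 libraries of a group matched within counting noise (lowest chi-square per degree of freedom 10.1). The labels number the samples and do not identify animals, so p-values reflect the spread among samples, which may be technical.

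The 52 genes and all lists were chosen with earlier results of these data known. Named genes are, in each role group, the 2 of smallest p and the 1 of largest p, every tested gene that did not rise, and the 3 largest and 3 smallest changes. From each related list they are the 2 of smallest p and those against the majority, with Pkmyt1 added after its values were seen. Other genes of the 52 are given by mean, count or fold change, and Ncapd2 by library, chosen after its values were seen.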

Additional observations from a re-analysis of the deposited data

Results flagged for a closer look

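Among 104 groups of 5 libraries, 52 genes in each of 2 groups, 3 held a library that stood apart by Dixon's gap test at the 95% level, which flags about 1 in 20 groups by chance. Plk1 was at 1.78 CPM in naive 1, against 0.941 to 1.19 CPM in the other naive libraries, and was below every sham library all the same. Top2a was at 6.24 CPM in sham 1, against 9.02 to 10.1 CPM in the other sham libraries, and above every naive library. Pbk was at 0.253 CPM in naive 5 and at 0 counts in the other 4 naive libraries.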

How the results depend on the processing

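The count of mitotic genes higher in sham, 41, was 40 to 43 in the alternatives that kept the filter and all libraries, 36 of 39 with a filter of 1 CPM, and 38 to 44 when 1 library was left out. The fits that left out 1 library held 44 to 48 of the mitotic genes, against 44 in the main fit. The 1 gene called lower, Cenpa, left a count of 0 with RLE size factors, library size alone, no filter, the GC offset and without naive 1 and sham 4 together, and a count of 0 to 1 when 1 library was left out. These fits gave 1 gene lower at an unadjusted p under 0.05, except library size alone and no filter, with 0. With library size alone Cenpa was at 0.0235 and Mau2 at 0.0107, with the sign turned, since that scaling moves every gene up. It also gave 69 related genes higher and 2 lower, against 42 and 13, and 4473 genes of all higher and 283 lower, against 2342 and 2113. Limma voom gave 3243 genes lower and a median of 2.31 over the 44 mitotic genes, against 1.97, and the cause was not tested. The related genes called lower ranged over 8 to 16 when 1 library was left out, lowest without sham 2 or sham 5.

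Sham and naive samples of the same number correlated at 0.00801 to 0.293 over genes, above 0.1 in 3 of 5 pairs. In each group 3 of 5 libraries correlated best with their own number. The labels state no pairing, so the main fit left the numbers out and an alternative took them as a replicate block. Whether samples of the same number share a batch was not tested. With the replicate block 41 mitotic genes were higher and 1 lower, and 2592 genes of all were higher and 2801 lower. Depth limits the 8 genes too low for the test.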
